A study of Ambystoma mexicanum with 6 samples.

Results

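Among the assembled transcripts of regenerating axolotl limbs, the transcripts of 4 genes that act while a cell divides, BUB1, TACC3, KI20A and DEP1A, were followed in limbs treated with iMDK or with the solvent DMSO. The members were all transcripts of the assembled genes c1065606_g2 (best blastx hit BUB1_HUMAN), c1081020_g2 (TACC3_XENLA), c1077771_g3 (KI20A_HUMAN) and c1088162_g2 (DEP1A_XENLA). These were 16 of 1554055 transcripts and 4 of 1388798 assembled genes, with 1 transcript for BUB1, 7 for TACC3, 6 for KI20A and 2 for DEP1A. An assembled gene is a set of transcripts that the Trinity assembler could not separate, and its species part names the nearest protein and not the origin of the RNA.

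The series compared forelimbs of juvenile white axolotls (Ambystoma mexicanum) whose animals were kept in DMSO or in iMDK, a small molecule used to inhibit the growth factor midkine. All limbs were amputated and collected at 11 days post-amputation (dpa), with 3 libraries per group, and the drug was in the water, so every tissue of the animal was exposed. The labels date the start of treatment to the amputation, whereas the methods of the study describe a start then or some days later. Poly(A) RNA of whole regenerating limb tissue was sequenced, and each replicate is a limb of a different animal according to the study. The deposited values are TMM-scaled TPM, which is the share of a transcript among all transcripts of a library, corrected for transcript length and multiplied by 1 scaling factor per library. Because such values carry no read totals, depth is unknown, and counting intervals were not computed. The limma p-values therefore rest on the spread between these libraries, moderated by that of genes of similar level. This spread holds differences between limbs and technical variation together.

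Division of a cell is driven by cyclin-dependent kinase, checked at the kinetochores where microtubules take hold of chromosomes, and completed when the spindle midzone directs cytokinesis. In an amputated axolotl limb, a wound epidermis closes over the stump, progenitor cells gather below it, and their division builds the blastema from which the limb regrows. BUB1 is a kinase of the spindle assembly checkpoint that sits at kinetochores. TACC3 binds spindle microtubules and stabilizes the fibers that hold kinetochores. KI20A, known as KIF20A or MKLP2 in human cells, is a kinesin motor that brings the chromosomal passenger complex to the midzone during cytokinesis. DEP1A, known as DEPDC1 in human cells, is a DEP domain protein reported to be needed for progress through mitosis in those cells.

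Between 126965 transcripts (iMDK 1) and 198094 transcripts (DMSO 2) were above 0 in a library. Across assembled genes, 2 libraries of a group correlated at 0.814 to 0.847 on the log2 scale and 2 libraries of different groups at 0.794 to 0.828, so that these ranges overlapped. The tissue label was met by its markers in all 6 libraries, with the collagen gene CO1A1 at 82.6 to 304 and the larger of the keratin genes K2C5 at 4794 to 8348 TMM-scaled TPM.

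BUB1 was at 11.2, 9.28 and 7.38 TMM-scaled TPM in DMSO replicates 1, 2 and 3 and at 7.21, 5.71 and 5.50 in iMDK replicates 1, 2 and 3. All 3 iMDK limbs were below all 3 DMSO limbs, but iMDK 1 and DMSO 3 were almost level. The means were 9.30 ± 1.93 and 6.14 ± 0.928 (SD, n = 3 per group), so that the iMDK mean was 66.04% of the DMSO mean. On the log2(value + 0.5) scale the difference was -0.55 ± 0.23 (SE, 95% interval -1.10 to -0.0014), and it did not pass (limma, Benjamini-Hochberg adjusted p = 0.468).

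The summed transcripts of TACC3 were at 22.1, 21.5 and 17.5 TMM-scaled TPM in DMSO and at 16.1, 14.5 and 11.4 in iMDK. TACC3 was the member whose groups lay farthest apart, with the lowest DMSO limb 0.12 above the highest iMDK limb on the log2 scale. The means were 20.4 ± 2.49 and 13.996 ± 2.41 (SD, n = 3 per group), and the iMDK mean was 68.6% of the DMSO mean. The log2 difference was -0.53 ± 0.19 (SE, 95% interval -0.998 to -0.07) and did not pass (limma adjusted p = 0.391).

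KI20A, the most abundant of the 4, was at 45.7, 44.9 and 34.7 TMM-scaled TPM in DMSO and at 40.5, 24.7 and 23.7 in iMDK. Its groups overlapped, because iMDK 1 was above DMSO 3, while iMDK 2 and 3 were below every DMSO limb. The means were 41.8 ± 6.16 and 29.7 ± 9.41 (SD, n = 3 per group), and the iMDK mean was 71.0% of the DMSO mean. The log2 difference was -0.52 ± 0.25 (SE, 95% interval -1.11 to 0.07) and did not pass (limma adjusted p = 0.533).

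DEP1A, the least abundant, was at 5.54, 5.36 and 3.82 TMM-scaled TPM in DMSO and at 3.79, 2.70 and 2.27 in iMDK. Its groups did not overlap, though DMSO 3 and iMDK 1 differed by only 0.0094 on the log2 scale. The means were 4.91 ± 0.946 and 2.92 ± 0.782 (SD, n = 3 per group), and the iMDK mean was 59.6% of the DMSO mean, the lowest percentage of the 4. The log2 difference was -0.67 ± 0.29 (SE, 95% interval -1.35 to 0.02) and did not pass (limma adjusted p = 0.482). In bulk RNA of whole tissue, fewer dividing cells and less RNA of these genes per dividing cell cannot be told apart.

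**Figure D1:**
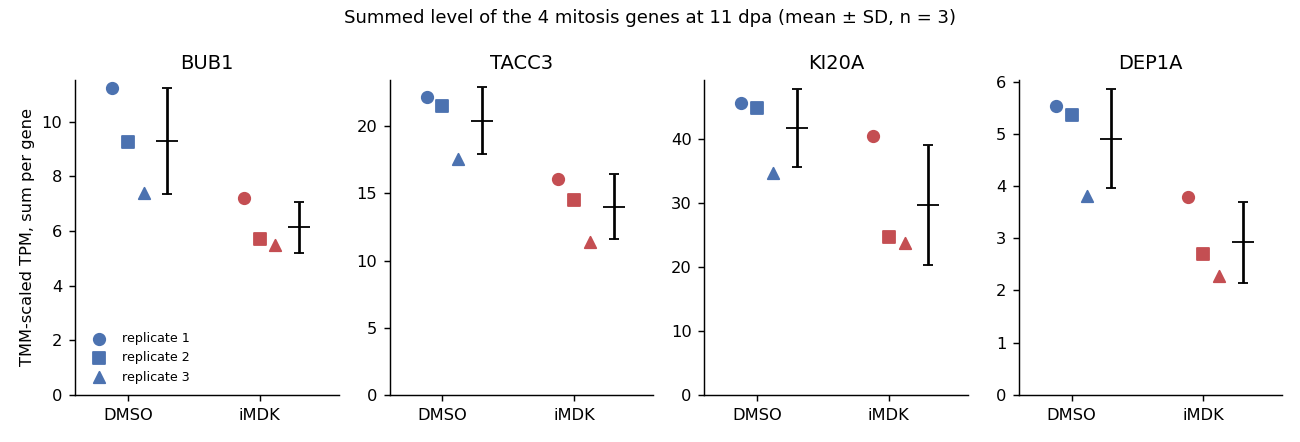
Summed TMM-scaled TPM (y axis, from 0) of BUB1, TACC3, KI20A and DEP1A in each DMSO and iMDK library, with the mean ± SD of 3 libraries as a black bar beside the points. The iMDK points lie below all DMSO points for BUB1, TACC3 and DEP1A, whereas for KI20A iMDK replicate 1 (40.5) lies above DMSO replicate 3 (34.7).

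None of the 4 gene sums was called at an adjusted p under 0.05 and a fold above 2, against 24 of 44342 tested assembled genes (0.0541% in either direction, 0.0226% lower in iMDK). Before adjustment, limma placed BUB1 and TACC3 under 0.05 but not KI20A and DEP1A, and across all tested genes 4.89% were lower with such an unadjusted value. This split depended on the setting, since all 4 genes were under 0.05 with the TMM factors undone and none was without the mean-variance trend. Over all tested genes, 3197 of 44606 were lower with such a value with the TMM factors undone, and 1758 of 44342 without the trend. Undoing TMM also moved the median log2 difference of all tested genes from -0.01 to -0.09. Groups without overlap, lower in iMDK, were found for 3 of the 4 members and for 8.23% of all tested genes. The 4 genes were picked with results of these same libraries known, so these shares are no independent evidence of their direction. A log2 difference as low or lower was found in 17.8% of tested genes for BUB1, 18.6% for TACC3, 19.3% for KI20A and 13.3% for DEP1A, so none of the 4 stood at the edge of the distribution.

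In TPM, which is per length, the order of levels was KI20A, TACC3, BUB1 and DEP1A in each of the 6 libraries, and no 2 neighbors in this order overlapped in their ranges within DMSO or within iMDK. The DMSO mean of KI20A was above that of 93.6% of tested genes. The corresponding percentages were 88.1% for TACC3, 78.7% for BUB1 and 67.5% for DEP1A. The 4 log2 differences ranged from -0.67 to -0.52, each lay within the 95% intervals of the other 3, and differences among them were not tested.

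The transcripts behind these sums were then examined, since kallisto divides reads among transcripts of 1 assembled gene and a sum can hide an exchange between them. Of the 16 transcripts, 6 reached 1 TMM-scaled TPM in at least 3 libraries and were tested, and 10 did not and are described by their values. None of the 6 was called, beside 280 of 51718 tested transcripts (0.541% in either direction, 0.23% lower). None of the 6 had an unadjusted limma p under 0.05, beside 5.27% of all tested transcripts that were lower with such a p, and 5 of the 6 were below 0, beside 51.1%. BUB1 had a single transcript, c1065606_g2_i1, whose level is the sum given above (limma adjusted p = 0.473 among transcripts).

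Most of TACC3 came from c1081020_g2_i4, at 18.1, 17.7 and 14.3 TMM-scaled TPM in DMSO and 13.999, 12.2 and 9.74 in iMDK. The groups of this transcript did not overlap, and its log2 difference was -0.47 ± 0.21 (SE, limma adjusted p = 0.480). The second tested transcript, c1081020_g2_i7, was at 0.852, 1.65 and 2.51 in DMSO and 1.55, 2.38 and 1.15 in iMDK. These values were interleaved, and their log2 difference of 0.05 ± 0.45 (SE, limma adjusted p = 0.973) changed sign with the scaling, to -0.017 with the TMM factors undone and -0.076 with quantile normalization.

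The other 5 TACC3 transcripts were low. In c1081020_g2_i2, DMSO 1 and DMSO 2 were at 1.66 and 1.16 TMM-scaled TPM, and the other 4 libraries were listed at 0. The same 2 DMSO limbs were the only ones above 0 for c1081020_g2_i6, at 0.160 and 0.458. The transcript c1081020_g2_i1 was at 0.369, 0.532 and 0.706 in DMSO and at 0.471 in iMDK 3, and was listed at 0 in iMDK 1 and 2. The transcript c1081020_g2_i3 was above 0 in DMSO 1 (0.975) and iMDK 1 (0.536), and c1081020_g2_i5 was listed at 0 in all 6 libraries. Zeros of this kind may be estimates that failed where transcripts share reads, so they do not show that a transcript was absent.

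Together, the TACC3 transcripts other than c1081020_g2_i4 summed to 4.02, 3.79 and 3.21 TMM-scaled TPM in DMSO and 2.09, 2.38 and 1.62 in iMDK, without overlap. The iMDK mean of this remainder was 55.2% of its DMSO mean. Its only tested transcript, c1081020_g2_i7, had means of 1.67 in DMSO and 1.69 in iMDK. The lower remainder thus came from transcripts too low to be tested, with zeros that may be failed estimates. The shares that follow rest on the same low values. The share of TACC3 held by c1081020_g2_i4 was 81.9, 82.3 and 81.7% in DMSO and 87.0, 83.7 and 85.7% in iMDK. All 3 iMDK shares were above all 3 DMSO shares, by 3.50 percentage points in the mean (82.0 ± 0.337% and 85.5 ± 1.70%, SD, n = 3 per group). The 2-sided exact permutation test gave p = 0.1, the smallest that 3 against 3 libraries allow (0.3 after adjustment over 3 genes).

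For KI20A, c1077771_g3_i3 held most of the sum, at 40.3, 39.5 and 29.6 TMM-scaled TPM in DMSO and 34.4, 21.3 and 18.7 in iMDK. As for the sum, iMDK 1 was above DMSO 3, and the log2 difference was -0.58 ± 0.27 (SE, limma adjusted p = 0.4999). The next transcript, c1077771_g3_i6, was at 3.53, 3.57 and 3.65 in DMSO and at 4.85, 2.12 and 4.17 in iMDK. It was nearly constant among DMSO limbs and spread on both sides of them in iMDK limbs, and its log2 difference of -0.02 ± 0.34 (SE, limma adjusted p = 0.984) became 0.29 without iMDK 2.

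The remaining 4 KI20A transcripts reached at most 1.31 TMM-scaled TPM. The transcript c1077771_g3_i4 was above 0 in every library, at 1.14, 0.709 and 0.790 in DMSO and 1.31, 0.587 and 0.792 in iMDK. The transcript c1077771_g3_i1 was at 0.460, 1.01 and 0.634 in DMSO and at 0, 0.489 and 0.094 in iMDK. The transcript c1077771_g3_i5 was above 0 in DMSO 1 (0.309) and iMDK 2 (0.257), and c1077771_g3_i2 in DMSO 2 (0.077). The share of KI20A held by c1077771_g3_i3 was 88.1, 88.1 and 85.4% in DMSO and 84.8, 86.1 and 78.7% in iMDK, a difference of -3.98 percentage points with overlapping groups (exact permutation p = 0.2, adjusted 0.3).

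DEP1A consisted of c1088162_g2_i2, at 4.39, 4.70 and 3.82 TMM-scaled TPM in DMSO and 3.09, 2.70 and 2.27 in iMDK, and c1088162_g2_i1, at 1.15, 0.656 and 0 in DMSO and 0.699, 0 and 0 in iMDK. The first had groups without overlap that lay wider apart than those of the sum, and the log2 difference was -0.60 ± 0.26 (SE, limma adjusted p = 0.478). Of the 6 tested transcripts, 3 were lower in iMDK without overlap, namely the leading transcripts of BUB1, TACC3 and DEP1A, beside 8.41% of all tested transcripts. The share held by c1088162_g2_i2 was 79.3, 87.8 and 100% in DMSO and 81.6, 100 and 100% in iMDK, and these groups overlapped (difference 4.84 percentage points, exact permutation p = 0.7).

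**Figure D2:**
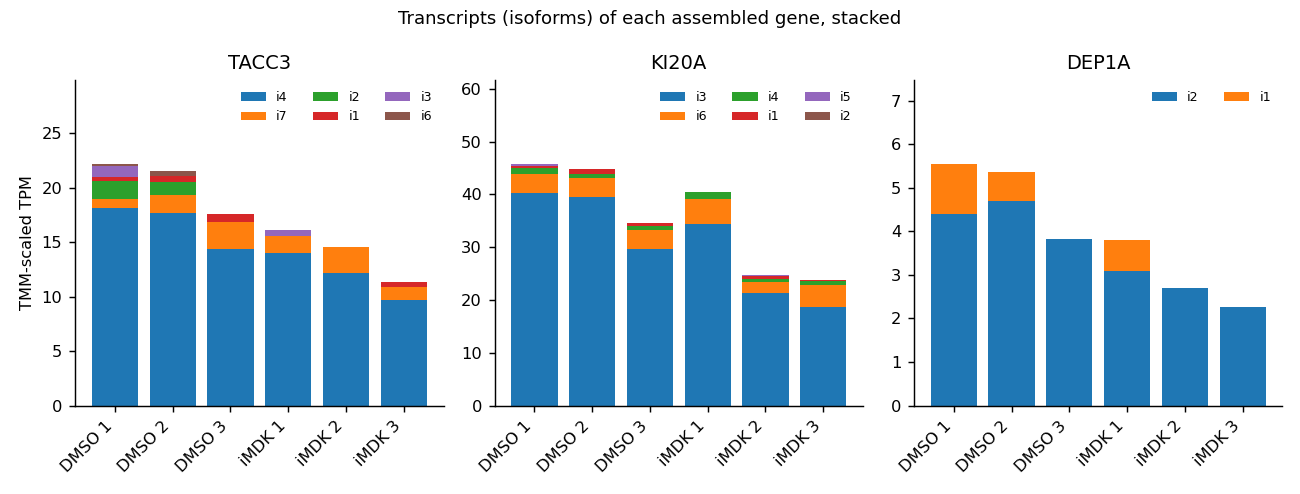
TMM-scaled TPM (y axis, from 0) of the transcripts of TACC3, KI20A and DEP1A, stacked per library, with colors for transcripts named by the last part of their identifier. One transcript led each gene in every library, i4 for TACC3 (81.7 to 87.0% of the sum), i3 for KI20A (78.7 to 88.1%) and i2 for DEP1A (79.3 to 100%).

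The 4 genes were next compared limb by limb. As deposited, each was highest in DMSO 1 and lowest in iMDK 3. As the mean of their log2 deviations from the DMSO mean, the 4 genes were at 0.18, 0.09 and -0.27 in DMSO 1, 2 and 3 and at -0.25, -0.64 and -0.81 in iMDK 1, 2 and 3. DMSO 3 was therefore slightly below iMDK 1 by this measure, and iMDK 2 and 3 lay apart from the other 4 libraries. Within a library the SD over the 4 genes was 0.0469 to 0.0701 in DMSO and 0.1065 to 0.146 in iMDK. Each gene was centered on its own DMSO mean, which brings the genes together in DMSO. In iMDK 1, where the SD was largest, KI20A was at -0.03 and the other 3 genes were between -0.33 and -0.32.

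With the TMM factors undone, the mean deviations were 0.12, 0.17 and -0.29 in DMSO and -0.43, -0.67 and -0.86 in iMDK, so that the groups did not overlap. The scaling thus decided whether DMSO 3 and iMDK 1 were apart. On that scale TACC3, KI20A and DEP1A were highest in DMSO 2 instead of DMSO 1, and KI20A was still higher in iMDK 1 (36.7) than in DMSO 3 (35.2).

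**Figure D3:**
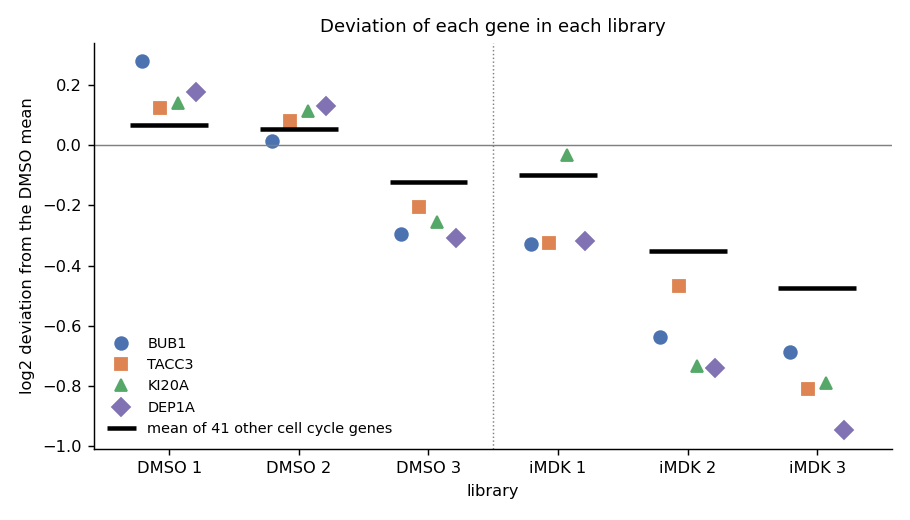
Log2 deviation of each of the 4 genes from its DMSO mean (y axis) in each library (x axis), with the mean deviation of 41 other cell cycle genes as a black line. The 4 genes lie closer together in DMSO libraries, on whose mean each gene is centered, than in iMDK libraries. They are widest apart in iMDK 1, where KI20A is at -0.03. The libraries iMDK 2 and iMDK 3 lie lowest for the 4 genes and for the other genes (-0.35 and -0.47).

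Over the 6 libraries Pearson's r of log2(value + 0.5) ranged from 0.903 (TACC3 and KI20A) to 0.980 (TACC3 and DEP1A) for the 6 pairs of genes. BUB1, TACC3 and DEP1A put the libraries in the same order, with Spearman's rho of 1.0 for each pair of them, and r was 0.941 for BUB1 and TACC3 and 0.970 for BUB1 and DEP1A. The pairs with KI20A had rho of 0.943, since iMDK 1 and DMSO 3 changed places, and r of 0.917 with BUB1 and 0.963 with DEP1A. The order depended on the scaling. With the TMM factors undone, r stayed between 0.908 and 0.977, but rho was 0.886 for BUB1 and TACC3, 0.886 for BUB1 and KI20A, 0.829 for TACC3 and KI20A, and 0.943 for the 3 pairs with DEP1A.

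These values are descriptions without a p. They span both groups, and the 4 genes were picked with their lower means in iMDK known, so that part of each r is the difference between groups. As deviations from the group means, r was 0.820 to 0.954, or 0.745 to 0.944 with the TMM factors undone, and neither range was tested or compared with that of other genes. Without the 2 libraries farthest from the median of the first gene of a pair, r was 0.799 to 0.999.

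For a wider view, 41 other named genes of the cell cycle were grouped by role. These lists were chosen with earlier results of these data known and could hold only named genes. Their counts and shares, here and below, are therefore no independent evidence of a direction. None of the 41 was called in either direction, beside 24 of 44342 tested assembled genes (0.0541%). Their log2 differences ran from -0.77 to 0.21, so none reached the 2-fold change that a call needs. The log2 difference was below 0 for 37 of the 41 (90.2%), beside 50.7% of all tested genes, and the median was -0.35, beside -0.01 over all tested genes and 0.01 over the 1257 tested genes with a name. Groups without overlap, lower in iMDK, were found for 13 of 41 (8.23% of all tested genes). With the TMM factors undone this held for 23 of 41 (11.6% of all tested genes). As deposited, iMDK 1 was close to DMSO 3 for SMC4, RCC1, CTK2, ORC6, ATAD5 and DNLI1, so these separations were narrow. Others, as for PTTG and NSL1, were wider. These genes are named here after their values were seen. As a mean over the 41 genes, the log2 deviation from the DMSO mean was 0.07, 0.06 and -0.12 in DMSO and -0.10, -0.35 and -0.47 in iMDK. By this mean the 6 libraries stood in the same order as by the mean of the 4 mitosis genes.

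Among genes of entry into mitosis, 6 of 6 were below 0, with a median of -0.44, beside 50.7% of all tested genes. Of these 6, 1 did not overlap between groups, beside 8.23%. Differences between the roles, here and below, were not tested. CCNB1, cyclin B1, which activates the mitotic kinase, was at 132, 59.3 and 66.3 TMM-scaled TPM in DMSO and 64.1, 54.5 and 42.5 in iMDK. DMSO 1 stood far above the other limbs and iMDK 1 was above DMSO 2 (log2 difference -0.60 ± 0.33, SE, limma adjusted p = 0.614). PLK1, polo-like kinase 1, was at 43.5, 53.4 and 43.3 in DMSO and 45.6, 36.2 and 28.2 in iMDK. VRK1, a nuclear kinase that acts on chromatin in mitosis, was at 46.6, 30.3 and 28.2 in DMSO and 32.3, 22.6 and 21.3 in iMDK, and iMDK 1 was within the DMSO range for both kinases.

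The list of the anaphase-promoting complex and its substrates also held the separate ubiquitin ligase CHFR. In it, 2 of 4 genes were below 0 (median -0.13), near the 50.7% of all tested genes. Of the 4, 1 did not overlap, beside 8.23%. CDC20, an activator of that complex, was at 81.8, 58.7 and 56.5 TMM-scaled TPM in DMSO and 59.1, 49.4 and 37.3 in iMDK. PTTG, securin, which the complex destroys at anaphase, was at 46.6, 42.2 and 46.4 in DMSO and 38.4, 35.1 and 35.4 in iMDK, without overlap. CHFR, a ubiquitin ligase of a checkpoint before mitosis, was above 0 at 0.21 ± 0.43 (SE), with 10.3, 10.1 and 25.98 in DMSO and 23.3, 11.0 and 16.6 in iMDK. CHFR thus varied more among limbs of 1 group than between groups.

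At the centromere and kinetochore, where BUB1 acts, 5 of 5 genes were below 0 (median -0.37), beside 50.7% of all tested genes. Groups of 2 of them did not overlap, beside 8.23%. INCEA, the scaffold of the chromosomal passenger complex that KIF20A carries in human cells, was at 28.7, 28.8 and 24.2 TMM-scaled TPM in DMSO and 26.3, 19.5 and 18.0 in iMDK. As for KI20A, iMDK 1 was above DMSO 3. PMF1 of the kinetochore MIS12 complex was almost level, at 17.3, 14.7 and 14.4 in DMSO and 15.4, 14.7 and 15.3 in iMDK. CENPQ, a subunit of the inner kinetochore, was at 16.3, 10.5 and 12.2 in DMSO and 11.6, 10.9 and 10.5 in iMDK, with DMSO 1 apart from the rest.

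Of the spindle and cytokinesis genes, 8 of 8 were below 0, with a median of -0.23, beside 50.7% of all tested genes. Among them 3 did not overlap, beside 8.23%. CTK2, a kinesin of the C-terminal motor type that works at spindle poles, was at 93.1, 87.2 and 73.5 TMM-scaled TPM in DMSO and 71.8, 55.05 and 43.6 in iMDK, without overlap (log2 difference -0.59 ± 0.21, SE, limma adjusted p = 0.387). RCC1, the exchange factor of the GTPase Ran, which guides spindle assembly around chromosomes, was at 59.0, 61.7 and 43.6 in DMSO and 42.7, 39.8 and 32.97 in iMDK, also without overlap. GCP2 of the gamma-tubulin ring complex, which starts microtubules, was at 11.9, 16.1 and 11.4 in DMSO and 11.7, 13.5 and 11.2 in iMDK, a difference of -0.10 ± 0.20 (SE).

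All 3 genes of mitotic chromosome structure were below 0 (median -0.35), beside 50.7% of all tested genes. Of the 3, 2 did not overlap, beside 8.23%. SMC4, a core subunit of condensin, was at 18.4, 18.98 and 14.7 TMM-scaled TPM in DMSO and 14.5, 12.6 and 11.7 in iMDK. STAG1, a subunit of cohesin, was at 12.4, 14.1 and 13.1 in DMSO and 12.3, 10.3 and 9.43 in iMDK. Neither overlapped between groups, but the gaps were narrow, with iMDK 1 close to DMSO 3 for SMC4 and to DMSO 1 for STAG1. TOP2A, the topoisomerase that untangles sister chromatids, overlapped, at 66.7, 82.4 and 54.5 in DMSO and 62.6, 47.6 and 48.4 in iMDK.

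Of the DNA replication genes 10 of 12 were below 0 (median -0.36), beside 50.7% of all tested genes. Among the 12, 3 did not overlap, beside 8.23%. NASP, a histone chaperone, was at 55.1, 73.4 and 67.4 TMM-scaled TPM in DMSO and 58.1, 39.2 and 41 in iMDK, and iMDK 1 was again within the DMSO range. PRI2, the large subunit of primase, was at 45.4, 39.99 and 36.8 in DMSO and 40.3, 27.4 and 27.8 in iMDK. RNH2B, a subunit of ribonuclease H2, was above 0 at 0.12 ± 0.32 (SE), with 93.7 in iMDK 1 above the other 5 libraries at 43.03 to 61.9.

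For control of the step from G1 to S phase, 3 of 3 genes were below 0 (median -0.19), beside 50.7% of all tested genes. Of these 3, 1 did not overlap, beside 8.23%. RB, the retinoblastoma protein, which restrains E2F factors, was at 27.01, 24.1 and 21.4 TMM-scaled TPM in DMSO and 19.97, 20.7 and 20.7 in iMDK, without overlap. RBL2, its relative p130, was at 1.58, 2.43 and 1.42 in DMSO and 1.18, 2.004 and 1.93 in iMDK, and E2F7, a repressor of the E2F family, at 1.89, 2.85 and 1.64 in DMSO and 1.73, 1.56 and 2.0 in iMDK. Both overlapped and were near the lower limit for testing.

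**Figure D4:**
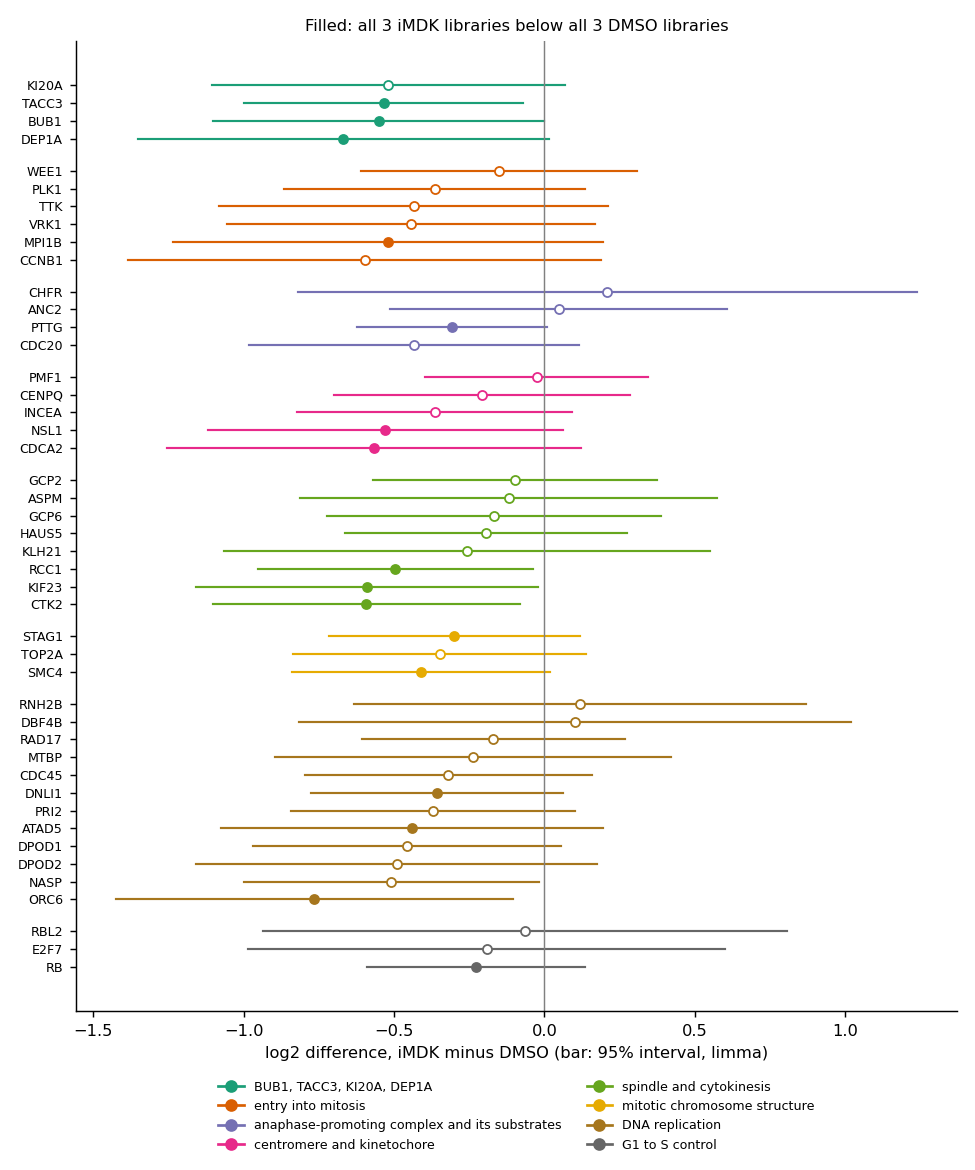
Log2 difference of iMDK minus DMSO (x axis) with its 95% limma interval for the 4 mitosis genes and 41 other cell cycle genes, grouped by role, with filled points where all 3 iMDK libraries were below all 3 DMSO libraries. Most points lie left of 0 (37 of the 41), with most intervals crossing 0.

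An unadjusted limma p under 0.05 was reached by 5 of the 41 genes, CTK2, RCC1, KIF23, NASP and ORC6, all lower in iMDK, beside 4.89% of all tested genes. Adjusted p-values of the 41 ranged from 0.387 to 0.963. KIF23, a kinesin of the central spindle that, like KI20A, works in cytokinesis, was chosen here after its values were seen. It was at 14.5, 12.9 and 12.2 TMM-scaled TPM in DMSO and 11.8, 7.83 and 6.84 in iMDK, without overlap. The 4 genes above 0 were CHFR and RNH2B, given above, and ANC2 (0.05), a subunit of the anaphase-promoting complex, and DBF4B (0.10), an activator of the replication kinase CDC7, likewise named after their values were seen.

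Of 1253 named tested genes, those whose log2 levels over the 6 libraries were most like the mean of the 4 members were RANB3 (Pearson r = 0.998), CCA5B (0.990), CTK2 (0.985), ORC6 (0.985) and FAKD1 (0.983). RANB3, a Ran-binding protein of nuclear export, was at 40.03, 38.6 and 30.5 TMM-scaled TPM in DMSO and 30.6, 23.9 and 22.4 in iMDK. CCA5B was at 47.3, 39.8 and 29.9 in DMSO and 31.2, 24.2 and 20.7 in iMDK. ORC6, a subunit of the origin recognition complex, was at 16.03, 12.9 and 11.0 in DMSO and 10.8, 6.72 and 5.84 in iMDK. FAKD1, a protein of mitochondrial RNA metabolism, was at 14.2, 12.3 and 10.4 in DMSO and 9.24, 7.81 and 6.94 in iMDK.

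An r above 0.9 was found for 11 of the 41 cell cycle genes (26.8%) and 56 of the 1253 named genes (4.47%), and the median r was 0.825 and 0.0044, respectively. These are descriptions over 6 libraries that share their treatment and scaling factors. Members and lists were both chosen with earlier results of these data known, so the higher share in the lists is no independent evidence. The most similar genes are those out of many candidates whose order of limbs was nearly the same as that of the members. They include genes that were not entered in the cell cycle lists, and such a gene may still act in the cell cycle.

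Marker genes of other cell types were also summed. Of 15 epidermal marker genes, 12 were above 0 (median 0.45), with a summed level of 8758 to 13313 TMM-scaled TPM in DMSO and 12457 to 14333 in iMDK. These ranges overlapped, as did those of the next 2 lists, and no gene of the 3 lists was called. For macrophages and osteoclasts it was 12 of 13 genes, at 4025 to 4689 in DMSO and 4238 to 6191 in iMDK. Connective tissue genes were above 0 in 9 of 10, at 966 to 2192 and 1719 to 1831. Abundant genes weigh most in these sums. The counts are of assembled genes, and some genes of a list share a name. This held for K2C5 among epidermal genes, MPEG1, GRN and CATK among macrophage and osteoclast genes, and FBN2 among connective tissue genes. Assembled genes of the same name may be parts of 1 gene, so they need not be separate markers. As the mean log2 deviation from the DMSO mean, the macrophage and osteoclast genes did not overlap. They were at 0.08, -0.28 and 0.20 in DMSO and 0.74, 0.29 and 0.29 in iMDK. By that mean, the epidermal and the connective tissue genes still overlapped. Erythrocyte genes were above 0 in 4 of 6, with sums of 8.79 to 19.3 and 44.2 to 84.9 that did not overlap. The beta globin genes HBB1 and HBB2 were the 2 marker genes called, beside 24 of 44342 tested genes. Log2 differences above 0 were found for 21842 of the 44342. Groups without overlap, higher in iMDK, were found for 2 of 15 epidermal and 4 of 13 macrophage and osteoclast genes. These 4 include c1067279_g4 and c1067279_g6, which share the name GRN. For connective tissue these were 0 of 10 genes, for erythrocytes 3 of 6, and for all tested genes 3714 of 44342. No marker gene was listed at 0 in any library, although both muscle genes were low, with MYH3 at 1.05 to 5.04 and ABRA at 0.351 or less. The part of these cell types in the levels of BUB1, TACC3, KI20A and DEP1A was not tested.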

How the data were processed

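RNA of 3 DMSO-treated and 3 iMDK-treated limbs at 11 dpa was sequenced from Nextera XT libraries. Reads were trimmed (Trimmomatic) and assigned by the authors with kallisto to an axolotl transcriptome assembled with Trinity, with versions not given in the sources used here. In the deposited signal, the TPM of each transcript were scaled by 1 TMM factor per library, and library totals ranged from 910461 to 1103877. Groups and replicate numbers are those of the labels.

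Transcripts were summed per assembled gene, since kallisto can divide reads arbitrarily among close transcripts. Sums and transcripts of at least 1 in at least 3 of 6 libraries were tested on the log2(value + 0.5) scale with limma 3.58.1 (mean-variance trend, 2-sided) in R 4.3.3, with Benjamini-Hochberg adjustment over all tested features. As in the study, a call needed an adjusted p below 0.05 and more than a 2-fold change. Fold changes on this scale understate the change of low genes. The matrix was not counts, so no count test was run. Shares were tested by exact permutation in scipy 1.17.1. Correlations are given without a p, because a permutation over all 6 libraries would also count the difference between groups for which the genes were known. Only the limma step was tried on simulated data, with independent genes and added differences larger than those of the 4 members. It therefore does not show how well differences of the members' size are found.

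Names are blastx hits given by the study for 1675 transcripts of this assembly, and 0 identifiers matched RefSeq. In the sources used here, the study gives such names mainly for transcripts that differed between limbs closed with a full skin flap and normally regenerating limbs. Only these names could enter the lists, so the named genes are not a neutral sample of all genes. Members and lists were chosen with earlier results of these data known. Named genes were the 4 members with all transcripts, the 3 with the highest mean level of each cell cycle list and any called, and the 5 named genes most correlated with the members. Other pseudocounts, filters, scalings, variance estimates, the replicate block and leaving out each library were tried.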

Additional observations from a re-analysis of the deposited data

How the results depend on the processing

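All 4 gene sums were below 0 and uncalled in each alternative run, with adjusted limma p-values of 0.326 to 0.732 for BUB1, 0.260 to 0.697 for TACC3, 0.355 to 0.761 for KI20A and 0.370 to 0.745 for DEP1A, which was too low to be tested with a filter of at least 5. Their log2 differences ranged from -0.70 to -0.41, -0.64 to -0.40, -0.76 to -0.38 and -0.84 to -0.53. Of the other cell cycle genes 27 (of 30 left with a filter of at least 5) to 39 were below 0. The number of genes called over the whole table moved from 24 to 9 (pseudocount 0.1), 438 (no filter, 74.0% higher against 58.3%), 38 (filter of at least 5, 71.1% higher), 14 (TMM factors undone) and 820 (no trend), and to 0 to 3 without 1 library, and the cause was not tested. Transcripts called moved from 280 to 427 (no filter), 168 (filter of at least 5) and 1303 (no trend), and to 78 to 138 without 1 library. Among low or nearly level transcripts, c1077771_g3_i6 of KI20A turned to 0.29 without iMDK 2 (-0.22 without iMDK 1). For c1081020_g2_i7 of TACC3 the difference turned to -0.017 with TMM undone, -0.076 with quantile normalization, -0.25 without DMSO 1 and -0.16 without iMDK 2, and its highest value without 1 library was 0.33. The difference in share of the leading transcript ranged from -0.0267 (without DMSO 1) to 10.99 percentage points for DEP1A, from 2.72 to 4.41 for TACC3 and from -5.42 to -1.74 for KI20A. Undoing TMM moved the median of all genes from -0.01 to -0.09.

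Across tested genes, deviations of same-numbered DMSO and iMDK libraries correlated at 0.0711, 0.0583 and 0.0046, and those of other pairs at -0.106 to 0.0571. Correlations this low over many genes show no pairing by number but cannot exclude it. As deposited, each of the 4 members fell steadily from replicate 1 to replicate 3 in both groups. With the TMM factors undone, replicate 3 was still below replicate 1 for each member in both groups. BUB1 still fell steadily in both groups, and KI20A and DEP1A still did so in iMDK, but the other falls were not steady. On that scale TACC3, KI20A and DEP1A were higher in DMSO 2 than in DMSO 1, and TACC3 was slightly higher in iMDK 2 than in iMDK 1. With the replicate block limma called 0 genes (5018 with an unadjusted p under 0.05) and 30 transcripts, and none of the 4 members. The unadjusted limma p-values with the block were 0.0388 for BUB1, 0.0172 for TACC3, 0.0353 for KI20A and 0.051 for DEP1A.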
